A study of Mus musculus with 9 samples.

Results

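The hypoxia-inducible factor system was followed through 10 genes in mouse CD8+ T cells that had been co-cultured with stromal cells and sorted by the signal of the stromal cells' labelled mitochondria, or had been kept alone. The 10 genes were Hif1a and 9 of its known targets, Vegfa, Bhlhe40, Ero1l, Fam162a, Egln1, Egln3, Ndrg1, P4ha1 and Kdm3a, taken by symbol from 55421 counted genes. They were chosen by name with results from these same libraries known, so their values are a description without a test, and their counts support nothing beyond themselves. All 10 passed the filter on low counts that kept 15711 genes, and the lowest count of any of them in a library was 101, for Vegfa.

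The RNA came from splenic CD8+ T cells of Pmel Ly5.1 mice, a line with a transgenic T-cell receptor, in 3 groups of 3 libraries with the replicate letters B, C and D. MitoPositive cells had spent 36 h with DM5 stromal cells and had then been sorted as DsRed+. MitoNegative cells came out of the same kind of co-culture and had been sorted as DsRed-. Monoculture cells had been kept without stromal cells. Their time in culture and whether they were sorted are not given here, and the part of either in differences from monoculture was not tested. DM5 is an immortalized line of bone marrow stromal cells of BL6 origin with mitochondria labelled by DsRed, a red fluorescent protein, and it is a single line. All groups share the transgenic receptor and the congenic Ly5.1 marker, and no group has another transgene or a deletion by the labels. The ages of the mice, the oxygen level and the state of activation were not in the labels, and the titles carry a time of 0 h that they do not explain. Nothing in the labels says that letters are separate mice or cultures, so the spread between libraries may be technical.

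Hypoxia-inducible factor is a pair of proteins, an alpha subunit such as the product of Hif1a and the constant beta subunit Arnt. When oxygen is present, the prolyl hydroxylases Egln1 and Egln3 modify the alpha subunit, the ubiquitin ligase with Vhl binds it, and it is degraded, so that the factor is set largely by protein stability. When it escapes, the pair binds DNA at short response elements with the core ACGTG or GCGTG and raises genes of glucose use, vessel growth and matrix folding, and also raises its own hydroxylases. In T cells, signals from the antigen receptor are known to raise Hif1a messenger RNA and protein also with oxygen present.

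Promoter windows from RefSeq (build GRCm38.p6) were given for 8 of the 10 genes. Both cores were searched on both strands in the 250 bases before the start site. Where RefSeq gave several start sites, for Vegfa and Kdm3a, counts are for the window nearest the deposited start of the gene. A match was found in 7 of the 8, beside 38.6% of 32851 windows of the same length. That share was not matched for GC content, which was 50.8% in the Egln3 window and 86.0% in the Egln1 window. The genes were also chosen as known targets, so no enrichment is read from it. ACGTG stood in 16.6% of all windows and GCGTG in 28.2%. Fam162a had 6 matches, Hif1a, Ero1l and P4ha1 had 3 each, Egln1 had 2, and Egln3 and Kdm3a had 1 each. In Hif1a, 2 of the 3 overlap, since CACGTG reads as ACGTG on both strands. The Hif1a window stands before a start site at chr12:73907867, which lies 6492 bases inside the deposited gene. The nearest Vegfa window had 0, which says only that these letters are not in it. A second Vegfa window, before a start site at chr17:46025163 inside the deposited gene, had 2. The other Kdm3a windows had 0. A match is a run of letters and not a measured binding site. The stretches below are the Vegfa window, shown as the nearest one of a gene with a large difference, those of Fam162a and P4ha1, shown for several matches, and that of Egln1, shown for the member that was lower in co-culture. They run 5′ to 3′ on the gene's strand, and they end where the deposited gene begins or before it. The Fam162a stretch thus holds 5 of its 6 matches and the Egln1 stretch 1 of its 2. The matches left out lie inside the deposited genes. Capitals mark ACGTG or GCGTG, or CACGT or CACGC where the core lies on the other strand.
Vegfa, chr17:46032378-46032627, minus strand: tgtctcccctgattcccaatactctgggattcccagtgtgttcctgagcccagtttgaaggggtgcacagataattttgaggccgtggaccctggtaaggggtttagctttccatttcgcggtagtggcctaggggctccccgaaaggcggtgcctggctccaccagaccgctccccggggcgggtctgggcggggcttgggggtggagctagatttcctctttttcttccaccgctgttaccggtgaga
Fam162a, chr16:36071595-36071811, minus strand: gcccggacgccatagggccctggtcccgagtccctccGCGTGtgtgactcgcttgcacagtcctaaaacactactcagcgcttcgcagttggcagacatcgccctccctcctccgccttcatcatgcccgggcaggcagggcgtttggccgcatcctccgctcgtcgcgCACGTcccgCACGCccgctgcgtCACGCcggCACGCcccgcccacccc
P4ha1, chr10:59323046-59323295, plus strand: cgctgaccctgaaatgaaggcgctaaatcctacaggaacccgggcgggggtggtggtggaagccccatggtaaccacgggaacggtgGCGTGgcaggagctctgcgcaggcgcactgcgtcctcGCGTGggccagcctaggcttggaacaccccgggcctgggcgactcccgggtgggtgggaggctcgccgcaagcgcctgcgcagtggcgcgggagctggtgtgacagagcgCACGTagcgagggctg
Egln1, chr8:124949325-124949504, minus strand: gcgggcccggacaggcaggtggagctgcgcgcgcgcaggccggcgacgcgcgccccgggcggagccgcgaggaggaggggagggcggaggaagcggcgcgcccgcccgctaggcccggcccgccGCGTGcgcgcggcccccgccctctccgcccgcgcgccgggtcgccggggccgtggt

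Levels are given as CPM, a gene's deposited count over the library's total as scaled by edgeR's trimmed mean of M-values, always in the order B, C, D. Library totals ran from 53546152 to 74722832. The CD8+ T-cell markers Cd8a, Cd8b1, Cd3d, Cd3e, Cd3g, Cd2, Ptprc and Lck were detected in every library, with a summed level of 6963 to 7396 CPM in MitoPositive, 6869 to 7213 CPM in MitoNegative and 7611 to 8523 CPM in monoculture cells. Against monoculture 5 of these 8 were lower in MitoPositive and 6 in MitoNegative cells, and 0 passed between MitoPositive and MitoNegative cells, with 0 at an unadjusted p under 0.05. Of all 15711 genes 22.3% were higher and 19.9% lower in MitoPositive cells against monoculture, and 20.6% and 18.3% in MitoNegative cells. Between MitoPositive and MitoNegative only 0.0891% were higher and 0.0764% lower, and 1646 genes had an unadjusted p under 0.05 in edgeR's test. With so few genes passing there, 0 of a list says little. These shares stand beside the marker lists below as well. A list of 20 stromal markers summed to 17.9 to 48.1 CPM in MitoPositive, 19.0 to 49.8 CPM in MitoNegative and 6.16 to 7.54 CPM in monoculture cells. Most of the monoculture sum was Thbs1, at 6.64, 5.35 and 4.90 CPM. Thbs1 did not pass against monoculture in MitoPositive (edgeR's adjusted p = 0.397) or MitoNegative cells (adjusted p = 0.411). In monoculture 11 of the 20 were at 0 in all 3 libraries, among them Col1a2, Col3a1, Dcn, Lum and Pdgfra. Of the 17 that could be tested, 15 were higher in each co-cultured group than in monoculture, and 0 of 17 passed between MitoPositive and MitoNegative by edgeR's quasi-likelihood test, with 0 at an unadjusted p under 0.05. Stromal marker RNA thus moved with co-culture, and its part in the differences from monoculture was not tested. A list of 10 myeloid markers summed to 6.47 to 7.94 CPM in MitoPositive, 5.49 to 9.07 CPM in MitoNegative and 4.802 to 6.52 CPM in monoculture cells. Of the 7 that could be tested, 2 were higher (Cd68 and Cd14) and 3 lower (Lyz2, Adgre1 and Fcgr3) in MitoPositive cells against monoculture, 1 was higher (Cd68) and 2 lower (Adgre1 and Fcgr3) in MitoNegative cells, and 0 passed between MitoPositive and MitoNegative, with 0 at an unadjusted p under 0.05. The part of these markers in the results was not tested either. In such bulk libraries, fewer cells of a kind and less RNA per cell cannot be told apart.

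Hif1a, the factor's regulated subunit, stood at 936, 892 and 830.1 CPM in MitoPositive cells. It stood at 994, 947 and 819.6 CPM in MitoNegative and 339, 531 and 336 CPM in monoculture cells. Both co-cultured groups lay above every monoculture library, and they overlapped each other. The log2 fold change was 1.14 ± 0.165 for MitoPositive against monoculture (± SE, as for all below), a 2.20-fold difference. For MitoNegative against monoculture it was 1.20 ± 0.165, or 2.29-fold, and for MitoPositive against MitoNegative -0.05 ± 0.162. Among monoculture libraries C stood apart from B and D, and across the settings tried the first 2 of these values ran from 0.9996 to 1.39 and from 1.03 to 1.45. The gene lies on the plus strand of chromosome 12, from 73901375 to 73947530 in GRCm38, and shares 330 exonic bases with the antisense gene Gm15283. Gm15283 had at most 948 counts in a library, against at least 20284 for Hif1a.

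Vegfa, the secreted growth factor that drives vessel growth, was low in all cells and differed more. The gene lies at chr17:46016993-46032369 on the minus strand. Its level was 20.2, 18.7 and 15.7 CPM in MitoPositive cells, 20.1, 17.6 and 16.1 CPM in MitoNegative cells and 2.56, 2.79 and 1.67 CPM in monoculture cells. No co-cultured library came near a monoculture library, and MitoPositive and MitoNegative lay close to each other within each letter. As a log2 fold change this was 2.96 ± 0.177 for MitoPositive against monoculture and 2.94 ± 0.176 for MitoNegative against monoculture, or 7.78-fold and 7.65-fold. For MitoPositive against MitoNegative it was 0.02 ± 0.156. Vegfa is transcribed in many stromal cells too, and its 15.7 to 20.2 CPM in co-cultured libraries stand beside a summed 17.9 to 49.8 CPM of the 20 stromal markers. Vegfa was lowest in letter D in all 3 groups and highest in letter B in both co-cultured groups, where the stromal sums were lowest in D and highest in C. Whether stromal RNA contributes to it was not tested.

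Bhlhe40, a basic helix-loop-helix repressor that T cells also induce on receptor signalling, differed from monoculture by about as much, at a far higher level. It lies at chr6:108660629-108666925, plus strand, and shares 118 exonic bases with the antisense gene 0610040F04Rik, which had at most 81 counts in a library. It stood at 562, 668 and 581 CPM in MitoPositive cells, 454, 546 and 519 CPM in MitoNegative cells and 65.2, 85.9 and 69.5 CPM in monoculture cells. All MitoPositive libraries were above all MitoNegative ones, and both were far above monoculture. On the log2 scale the change was 3.04 ± 0.118 for MitoPositive against monoculture, 8.21-fold, and 2.78 ± 0.117 for MitoNegative against monoculture, 6.89-fold. MitoPositive against MitoNegative gave 0.25 ± 0.109, or 1.19-fold. Letter C was the highest of its group in all 3 groups.

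**Figure D1:**
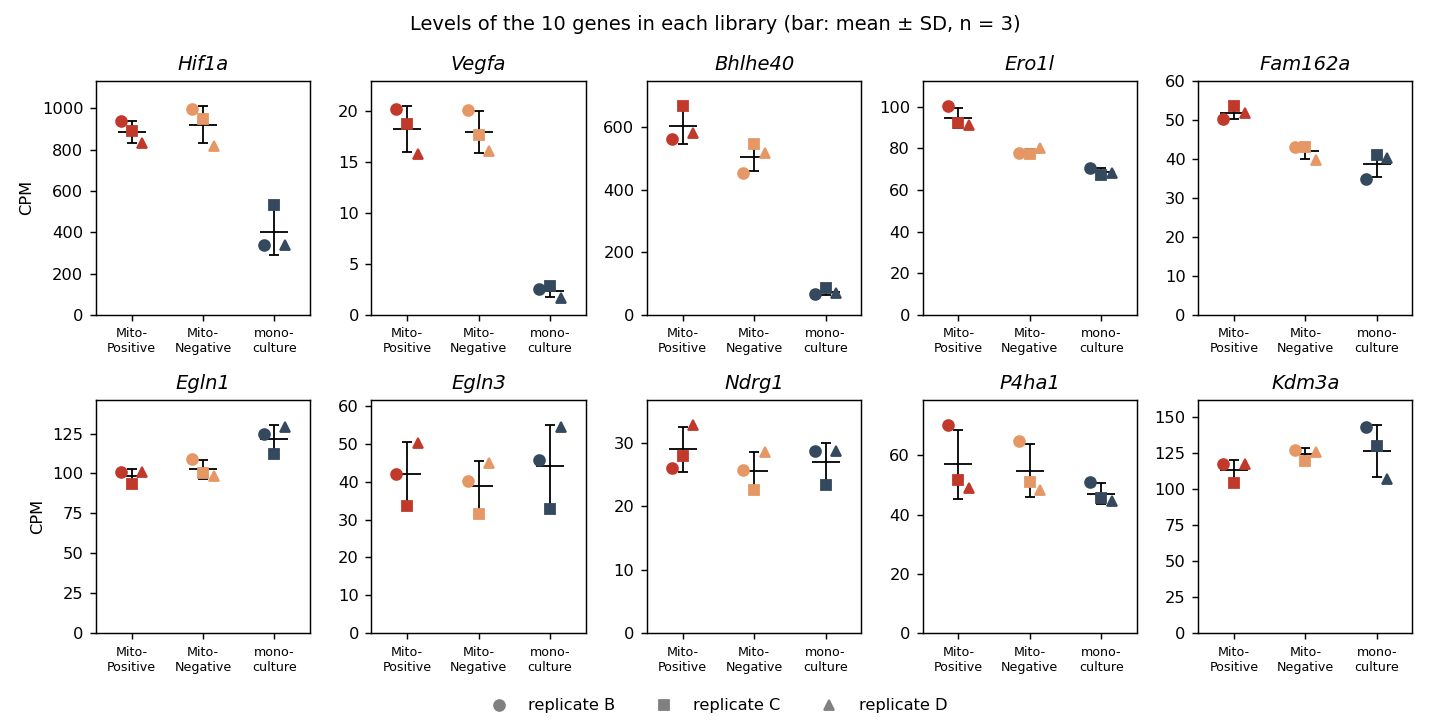
Level in CPM (vertical axes, from 0, each gene with its own scale) of the 10 genes in MitoPositive, MitoNegative and monoculture libraries, with the replicate letter as the symbol and the mean ± SD of 3 libraries as the bar. Hif1a, Vegfa and Bhlhe40 show both co-cultured groups far above monoculture, Ero1l and Fam162a show MitoPositive above both other groups, and Egln3, Ndrg1 and P4ha1 show groups that overlap.

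Ero1l, the oxidase that drives disulfide bond formation in the endoplasmic reticulum, was graded over the 3 groups. It is encoded at chr14:45283087-45318771 on the minus strand. It stood at 100.2, 92.2 and 91.2 CPM in MitoPositive cells, 77.7, 77.0 and 80.0 CPM in MitoNegative cells and 70.6, 67.2 and 68.2 CPM in monoculture cells. The groups did not overlap. The log2 fold change was 0.27 ± 0.0547 for MitoPositive against MitoNegative, 0.46 ± 0.0549 for MitoPositive against monoculture and 0.19 ± 0.0548 for MitoNegative against monoculture. The step was 1.21-fold between MitoPositive and MitoNegative and 1.14-fold between MitoNegative and monoculture, and the difference between the steps was not tested.

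Fam162a, which codes for a mitochondrial protein linked to cell death in hypoxia, was higher in MitoPositive cells than in both other groups. Its position is chr16:36043761-36071594 on the minus strand. It stood at 50.3, 53.7 and 52.0 CPM in MitoPositive cells, 43.1, 43.1 and 39.8 CPM in MitoNegative cells and 35.0, 41.0 and 40.3 CPM in monoculture cells. MitoPositive libraries were above all 6 others, while MitoNegative and monoculture overlapped. In log2 terms the difference was 0.31 ± 0.0682 for MitoPositive against MitoNegative, 0.42 ± 0.0685 for MitoPositive against monoculture and 0.11 ± 0.0685 for MitoNegative against monoculture. The gene shares 168 exonic bases with Wdr5b on the opposite strand, which had at most 678 counts in a library, against at least 2136 for Fam162a. Whether counting used the strand is not stated, so reads there could belong to either gene.

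Of the oxygen-sensing hydroxylases, Egln1 was lower in co-culture and Egln3 was not separated between groups. They lie at chr8:124908587-124949324 and chr12:54178981-54203860, both on the minus strand. Egln1 stood at 101, 93.7 and 101 CPM in MitoPositive cells, 109, 100.3 and 98.2 CPM in MitoNegative cells and 125, 112 and 129 CPM in monoculture cells. Every monoculture library was above every co-cultured one, and MitoPositive and MitoNegative overlapped. As a log2 fold change this was -0.31 ± 0.0677 for MitoPositive against monoculture, -0.25 ± 0.0676 for MitoNegative against monoculture and -0.06 ± 0.0676 for MitoPositive against MitoNegative. This is the direction opposite to that of Hif1a, Vegfa and Bhlhe40.

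Egln3 stood at 42.0, 33.4 and 50.3 CPM in MitoPositive cells, 40.1, 31.3 and 44.8 CPM in MitoNegative cells and 45.6, 32.7 and 54.3 CPM in monoculture cells. In each group C was lowest, B in the middle and D highest, so the order of the letters was the same in all 3 groups. The log2 fold change was 0.12 ± 0.226 for MitoPositive against MitoNegative, -0.07 ± 0.226 for MitoPositive against monoculture and -0.19 ± 0.226 for MitoNegative against monoculture. Without MitoNegative C, or without MitoPositive D, the first of these changed sign, and without MitoPositive C or monoculture D the second did.

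P4ha1, the catalytic subunit of the collagen prolyl hydroxylase, also followed the letter. It lies at chr10:59323296-59373304 on the plus strand. It stood at 70.3, 51.6 and 48.9 CPM in MitoPositive cells, 64.8, 51.0 and 48.2 CPM in MitoNegative cells and 51.1, 45.7 and 44.4 CPM in monoculture cells. B was highest and D lowest in every group, and the groups overlapped, although within each letter both co-cultured libraries were above the monoculture one. The fitted log2 change was 0.06 ± 0.151 for MitoPositive against MitoNegative, 0.28 ± 0.152 for MitoPositive against monoculture and 0.22 ± 0.152 for MitoNegative against monoculture.

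Ndrg1, a growth-restraining gene raised by hypoxia in many cells, stood at 25.9, 28.0 and 32.8 CPM in MitoPositive cells, 25.7, 22.6 and 28.5 CPM in MitoNegative cells and 28.6, 23.4 and 28.6 CPM in monoculture cells. The 3 groups overlapped. The gene, at chr15:66929318-66969640 on the minus strand, shares 419 exonic bases with Gm17035, which had at most 10 counts in a library. In log2 terms the difference was 0.18 ± 0.113 for MitoPositive against MitoNegative, 0.11 ± 0.113 for MitoPositive against monoculture and -0.07 ± 0.113 for MitoNegative against monoculture.

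Kdm3a, a histone lysine demethylase, stood at 117, 105 and 118 CPM in MitoPositive cells, 128, 119.9 and 126 CPM in MitoNegative cells and 143, 130.2 and 107 CPM in monoculture cells. Every MitoPositive library was below every MitoNegative one, while monoculture spanned both. Kdm3a lies at chr6:71588972-71632990 on the minus strand. The log2 fold change was -0.14 ± 0.0922 for MitoPositive against MitoNegative, -0.16 ± 0.0923 for MitoPositive against monoculture and -0.03 ± 0.0922 for MitoNegative against monoculture.

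Where a letter is said to be left out, its library in each of the 3 groups was left out. Against monoculture, 5 of the 10 genes were higher in MitoPositive cells past the threshold of 0.05 on edgeR's adjusted p (Hif1a, Vegfa, Bhlhe40, Ero1l and Fam162a) and 1 was lower (Egln1). Over all 15711 genes 22.3% were higher and 19.9% lower in that comparison. In MitoNegative cells 4 were higher (Hif1a, Vegfa, Bhlhe40 and Ero1l) and 1 was lower (Egln1), beside 20.6% higher and 18.3% lower of all genes. Because the choice of the 10 used these libraries, nothing is read from the counts. The median log2 fold change of the 10 was 0.35 in MitoPositive and 0.15 in MitoNegative cells against monoculture, beside 0.00 and 0.01 over all genes. Both comparisons use the same monoculture libraries. In MitoNegative cells the call of Egln1 was lost without MitoNegative C or without letter D, and that of Ero1l without monoculture C, MitoNegative D, letter C or letter D. In MitoPositive cells Kdm3a passed as lower, so that 2 were lower, without monoculture D and without letter D.

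Letters paired MitoNegative with monoculture by the correlation of their deviations. With the letter as a block, P4ha1 was also higher (0.21 ± 0.0653) and Egln3 also lower (-0.18 ± 0.0569) in MitoNegative cells, which makes 5 higher and 2 lower, beside 23.5% and 21.5% of all genes in that fit.

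**Figure D2:**
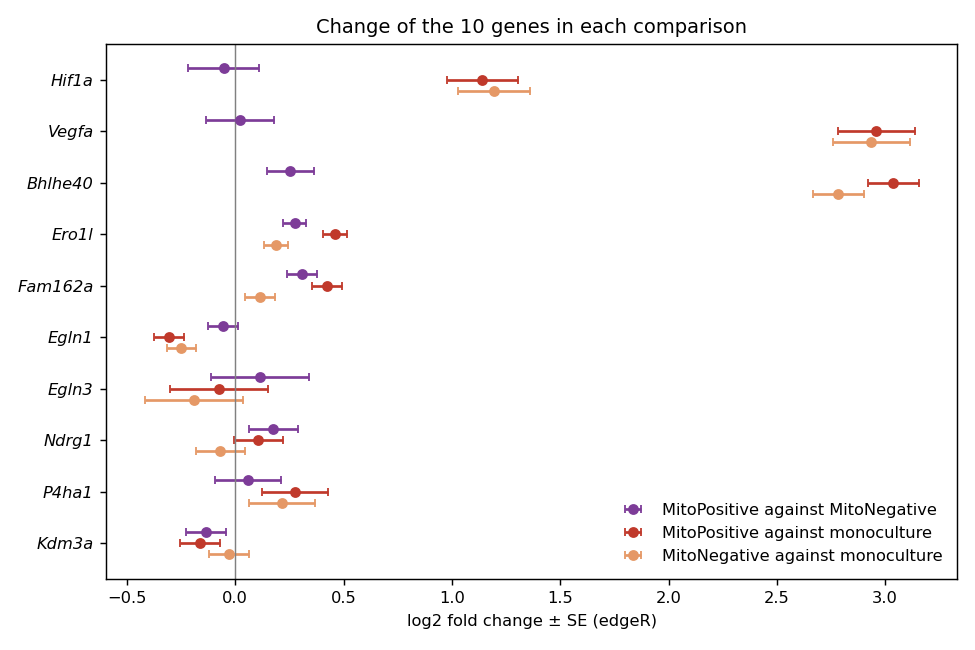
Log2 fold change (horizontal axis) with its SE from edgeR for the 10 genes (rows) in MitoPositive against MitoNegative, MitoPositive against monoculture and MitoNegative against monoculture. Vegfa and Bhlhe40 stand near 3 in both comparisons with monoculture and Hif1a near 1, while every MitoPositive against MitoNegative change lies between -0.14 and 0.31.

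Between MitoPositive and MitoNegative cells, which had been sorted as DsRed+ and DsRed- after co-culture, 0 of the 10 genes passed in either direction. In that comparison 0.0891% of all genes were higher and 0.0764% lower. An unadjusted p under 0.05 in edgeR's test was found for 3 of the 10 genes, beside 1646 of all 15711 genes. DESeq2 called 2 of the 10 higher and 0 lower, beside 1.56% and 1.1% of all genes, and limma voom called 0, beside 0.159% and 0.0509%. Without the filter on low counts 2 were higher and 0 lower, beside 0.379% and 0.238% of 27689 genes. With the letter as a block in the sorted groups alone 4 were higher and 1 lower, beside 9.92% and 8.29% of 15431 genes. The libraries of the groups did not overlap for 3 genes that were higher (Bhlhe40, Ero1l and Fam162a) and 1 that was lower (Kdm3a), beside 10.5% and 9.55% of all genes. The letters paired these groups more closely than the others. With the letter as a block, Ero1l (0.27 ± 0.0514) and Fam162a (0.31 ± 0.0631) were higher and 0 lower, beside 1.26% and 1.08% of all genes. Median log2 fold changes were 0.09 over the 10 genes and 0.00 over all genes.

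Letter by letter, the log2 ratio of MitoPositive over MitoNegative was 0.37, 0.26 and 0.19 for Ero1l in B, C and D. It was 0.22, 0.32 and 0.39 for Fam162a and 0.31, 0.29 and 0.16 for Bhlhe40. Egln3, Ndrg1 and P4ha1 were also higher in MitoPositive cells in 3 of 3 letters, at 0.07, 0.09 and 0.17 for Egln3, 0.01, 0.31 and 0.21 for Ndrg1 and 0.12, 0.02 and 0.02 for P4ha1. These were mostly smaller than the ratios of Ero1l and Fam162a. How many of all genes had the same sign in 3 of 3 letters was not counted, so nothing is read from such agreement. Kdm3a was lower in 3 of 3 letters, at -0.12, -0.20 and -0.10. For Hif1a the ratios were -0.09, -0.09 and 0.02, for Vegfa 0.01, 0.08 and -0.03 and for Egln1 -0.11, -0.10 and 0.04, each with both signs among the letters. Vegfa and Hif1a, both well above monoculture in co-culture, thus had no one-sided ratio between the sorted groups.

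**Figure D3:**
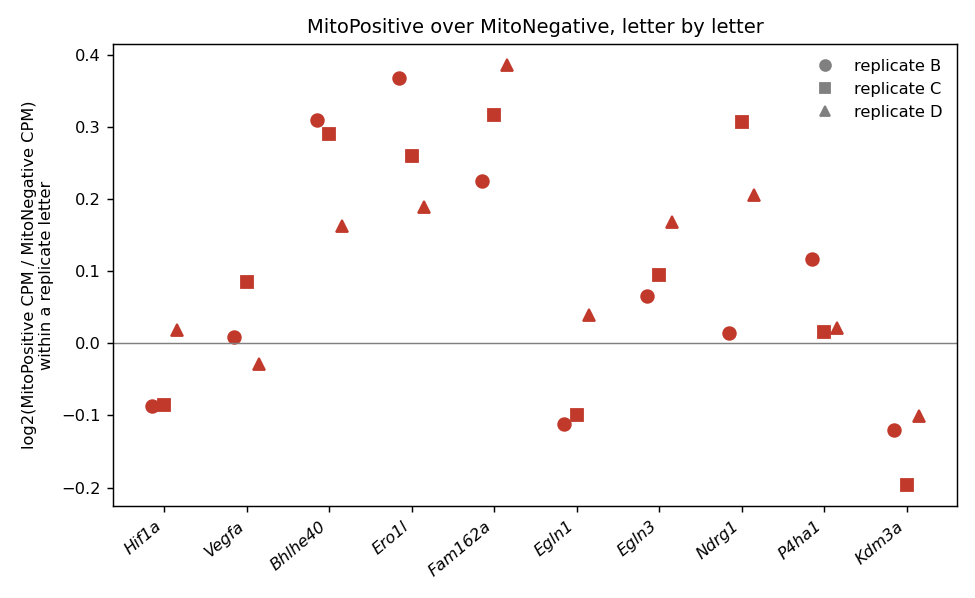
Log2 ratio of MitoPositive CPM over MitoNegative CPM within a replicate letter (vertical axis) for the 10 genes (horizontal axis), with a symbol per letter. Bhlhe40, Ero1l and Fam162a lie between 0.16 and 0.39 in all 3 letters, Kdm3a lies below 0 in all 3, and Hif1a, Vegfa and Egln1 lie on both sides of 0.

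Compared per exon length (CPM per kb of exon, which allows a comparison between genes), Hif1a was the most abundant, at 150.3 ± 9.06 in MitoPositive, 156 ± 15.3 in MitoNegative and 68.2 ± 18.9 in monoculture cells (± SD, n = 3). Bhlhe40 followed in both co-cultured groups, at 128 ± 11.96 in MitoPositive and 108 ± 10.1 in MitoNegative cells. In monoculture cells Bhlhe40, at 15.6 ± 2.32, had about the level of Kdm3a and Egln3 and lay under Fam162a and Egln1. Fam162a was next in MitoPositive cells at 61.2 ± 1.94, then Egln1 at 27.4 ± 1.18 and Ero1l at 17.9 ± 0.937. Egln3, P4ha1 and Kdm3a, between 13.8 and 15.7 in MitoPositive cells, were within their spread of one another, and Ero1l lay within the spread of Egln3. Ndrg1 and Vegfa were lowest at 4.38 ± 0.536 and 4.25 ± 0.530 in MitoPositive cells and did not differ beyond their spread, but in monoculture cells Vegfa, at 0.546 ± 0.138, was well under Ndrg1, at 4.07 ± 0.457.

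**Figure D4:**
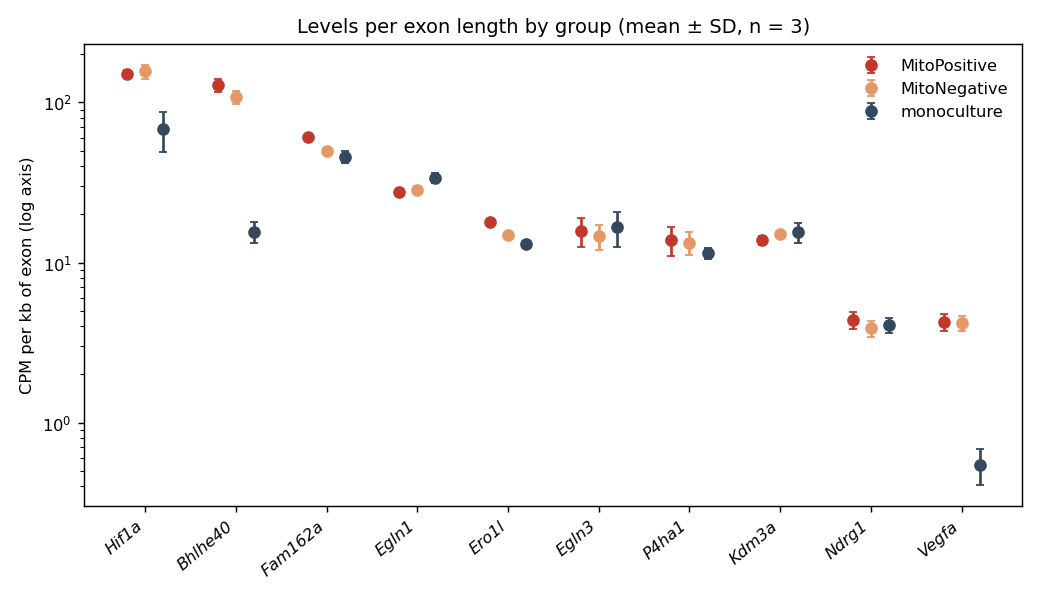
Level per exon length (CPM per kb of exon, log axis) of the 10 genes, ordered by their MitoPositive mean, as mean ± SD of 3 libraries in MitoPositive, MitoNegative and monoculture cells. Hif1a and Bhlhe40 lead in both co-cultured groups, and Vegfa is the lowest of the 10 in monoculture cells.

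Another 73 genes of the pathway, listed from general knowledge of it, were found in the table, and 66 could be tested. This list too was drawn up with earlier results of these data known. Its counts, medians and adjusted p-values are therefore a description and support nothing beyond themselves. Arnt2, Cox4i2, Ndufa4l2, Edn1, Flt1, Kdr and Loxl2 were too low. Against monoculture 31 of the 66 were higher and 11 lower in MitoPositive cells, and 31 were higher and 9 lower in MitoNegative cells. All are read against the same 22.3%, 19.9%, 20.6% and 18.3% of all genes given above. The median log2 fold change of the 66 was 0.29 in MitoPositive and 0.24 in MitoNegative cells against monoculture, also with Lox, at 0 in monoculture, set to its bound. Between MitoPositive and MitoNegative 0 of 66 passed, with a median of 0.07. At an unadjusted p under 0.05 in edgeR's test there were 17 of the 66, beside 1646 of all 15711 genes. DESeq2 called 5 higher and 1 lower there and limma voom 0, to be read against the shares of all genes given for each tool above. Leaving out letter B or letter C brought the lower calls of the 66 in MitoNegative cells against monoculture to 4 and 5. Over all genes these calls fell as well, from 2877 of 15711 to 1933 of 15751 without letter B and 1600 of 15816 without letter C. Adjusted p-values below were taken from the quasi-likelihood test of edgeR across all 15711 genes.

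Among 5 tested subunits and coactivators, 1 was higher and 3 were lower in MitoPositive cells against monoculture, and 1 higher and 2 lower in MitoNegative cells. The one that rose was Epas1, the alternative alpha subunit also known as HIF2A. It stood at 12.4, 17.0 and 10.9 CPM in MitoPositive cells, 4.97, 7.20 and 6.94 CPM in MitoNegative cells and 0.918, 0.815 and 1.39 CPM in monoculture cells. The 3 groups did not overlap. The log2 fold change against monoculture was 3.68 ± 0.248 in MitoPositive (adjusted p = 1.18e-06) and 2.61 ± 0.243 in MitoNegative cells (adjusted p = 1.66e-05). MitoPositive against MitoNegative gave 1.07 ± 0.214, a 2.10-fold difference that did not pass (adjusted p = 0.0691), but passed with the letter as a block (adjusted p = 0.0179). It also passed without MitoPositive D, monoculture D or letter D, with adjusted p-values of 0.0429, 0.0446 and 0.0496. By DESeq2 the adjusted p was 9.67e-05, and without the filter on low counts it was 0.0316 in edgeR's test. With the block in the sorted groups alone, where 9.92% of all genes were higher, it was 0.000991. In the other alternatives Epas1 did not pass. Epas1 thus had 4.97 to 17.0 CPM in co-cultured libraries. The 20 stromal markers summed to 17.9 to 48.1 CPM in MitoPositive and 19.0 to 49.8 CPM in MitoNegative cells. The part of stromal RNA in the Epas1 level was not tested.

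Arnt, the shared beta subunit, fell slightly in MitoPositive cells against monoculture, with a log2 change of -0.33 ± 0.0481 (adjusted p = 0.000224). In MitoNegative cells its change of -0.12 ± 0.0480 did not pass (adjusted p = 0.0715). The coactivator Ep300 fell in both, at -0.35 ± 0.0571 in MitoPositive (adjusted p = 0.000433) and -0.24 ± 0.0570 in MitoNegative cells (adjusted p = 0.00641). The call in MitoNegative cells was lost without letter B or letter C. Its relative Crebbp fell in both too, at -0.27 ± 0.0491 in MitoPositive (adjusted p = 0.00101) and -0.19 ± 0.0491 in MitoNegative cells (adjusted p = 0.00849). The call in MitoNegative cells was lost without MitoNegative B, letter B or letter C. Between the sorted groups, Arnt was lower in every MitoPositive library than in every MitoNegative one. Its log2 change there was -0.21 ± 0.0481 and did not pass (adjusted p = 0.103, or 0.0513 with the letter as a block). Arnt passed by DESeq2 (adjusted p = 0.00462) and with the block in the sorted groups alone (adjusted p = 0.000473), where 8.29% of all genes were lower. In the other alternatives it did not pass.

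Of 9 genes of oxygen sensing and degradation, 1 was higher and 4 were lower in MitoPositive cells, and 1 higher and 3 lower in MitoNegative cells. Cited2, which competes with the alpha subunit for its coactivators, fell the most, with a log2 change of -0.71 ± 0.0882 in MitoPositive (adjusted p = 6.8e-05) and -0.61 ± 0.0880 in MitoNegative cells (adjusted p = 0.000249). Hif1an, the asparaginyl hydroxylase that blocks coactivator binding, fell too, with -0.30 ± 0.0502 in MitoPositive (adjusted p = 0.000591) and -0.32 ± 0.0502 in MitoNegative cells (adjusted p = 0.000465). Cul2, the scaffold of the ligase with Vhl, rose, by 0.43 ± 0.0693 in MitoPositive (adjusted p = 0.000433) and 0.32 ± 0.0693 in MitoNegative cells (adjusted p = 0.00321), and lost the call in MitoNegative cells without letter B. Vhl itself and the hydroxylase Egln2 fell in MitoPositive cells, with -0.20 ± 0.0595 for Vhl (adjusted p = 0.0158) and -0.23 ± 0.0680 for Egln2 (adjusted p = 0.0163). Both calls were lost without MitoPositive B, monoculture D, letter C or letter D, and that of Vhl also without the filter on low counts. In MitoNegative cells neither passed, with -0.12 ± 0.0594 for Vhl (adjusted p = 0.128) and -0.11 ± 0.0679 for Egln2 (adjusted p = 0.212).

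Of 19 genes of glucose uptake and glycolysis, 12 were higher and 1 was lower in each co-cultured group against monoculture. Pgk1, phosphoglycerate kinase, rose most, to 1217, 1283 and 1168 CPM in MitoPositive cells and 1308, 1227 and 1066 CPM in MitoNegative cells, against 222, 255 and 292 CPM in monoculture cells. Its log2 fold change was 2.26 ± 0.110 in MitoPositive (adjusted p = 7.66e-08) and 2.23 ± 0.110 in MitoNegative cells (adjusted p = 1.52e-07). The aldolase Aldoa had 1.29 ± 0.0781 in MitoPositive (adjusted p = 3.14e-07) and 1.43 ± 0.0784 in MitoNegative cells (adjusted p = 3.48e-07). Its sister enzyme Aldoc had 1.40 ± 0.1001 in MitoPositive (adjusted p = 1.11e-06) and 1.23 ± 0.0999 in MitoNegative cells (adjusted p = 4.42e-06). Slc2a1, the main glucose importer, rose by 0.63 in MitoPositive (adjusted p = 0.000148) and 0.39 in MitoNegative cells (adjusted p = 0.00447). Pgk1, Aldoa, Ldha and other glycolysis genes have near-identical processed copies in the genome, which can take or give reads, so their levels are uncertain. The symbol Aldoa is held by more than 1 identifier, and the one with the larger count was used.

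Hk2, the inducible hexokinase, separated all 3 groups, at 73.8, 83.8 and 57.2 CPM in MitoPositive cells, 44.0, 48.4 and 42.6 CPM in MitoNegative cells and 15.6, 21.1 and 16.6 CPM in monoculture cells. Its log2 fold change against monoculture was 2.01 ± 0.152 in MitoPositive (adjusted p = 7.95e-06) and 1.34 ± 0.150 in MitoNegative cells (adjusted p = 0.000123). For MitoPositive against MitoNegative it was 0.67 ± 0.145, with an adjusted p of 0.108, or 0.00712 with the letter as a block and 0.0172 without MitoPositive D. By DESeq2 the adjusted p was 0.000417, and in edgeR's test with the block in the sorted groups alone it was 0.00298. In the other alternatives Hk2 did not pass.

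Other textbook targets of the same group and of mitochondrial turnover were not higher. Ldha, lactate dehydrogenase, had 0.18 ± 0.0905 in MitoPositive (adjusted p = 0.136) and 0.07 ± 0.0904 in MitoNegative cells against monoculture (adjusted p = 0.563), although it passed in MitoPositive cells without monoculture D, without letter D or with total counts as the scale. Pdk1, the kinase that keeps pyruvate out of mitochondria, fell, to 165, 127 and 164 CPM in MitoPositive cells and 189, 149 and 172 CPM in MitoNegative cells, against 271, 226 and 273 CPM in monoculture cells. Its log2 fold change was -0.76 ± 0.120 in MitoPositive (adjusted p = 0.000509) and -0.59 ± 0.119 in MitoNegative cells (adjusted p = 0.00275), and the call in MitoNegative cells was lost without letter D. The mitophagy receptor Bnip3l fell, with -0.54 ± 0.0660 in MitoPositive (adjusted p = 5.66e-05) and -0.46 ± 0.0659 in MitoNegative cells (adjusted p = 0.000222). Its relative Bnip3 had -0.27 ± 0.155 in MitoPositive (adjusted p = 0.183) and -0.27 ± 0.154 in MitoNegative cells (adjusted p = 0.203, or 0.0366 with the letter as a block and 0.0362 without MitoPositive C).

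Of the 7 tested mitochondrial and survival targets, 3 were higher and 1 was lower in each co-cultured group. Pmaip1, a death-promoting partner of the BCL2 family, rose by 1.51 ± 0.0773 in MitoPositive (adjusted p = 1.14e-07) and 1.32 ± 0.0771 in MitoNegative cells (adjusted p = 5.15e-07). Ddit4, a brake on the growth kinase mTOR, rose by 0.39 ± 0.107 in MitoPositive cells (adjusted p = 0.0131), a call lost without MitoPositive C or letter D. In MitoNegative cells it had 0.18 ± 0.107 (adjusted p = 0.2, or 0.0329 with the letter as a block and 0.0318 without monoculture C). Mxi1, a partner that antagonises MYC, had 0.09 ± 0.0615 in MitoPositive (adjusted p = 0.272) and rose by 0.23 ± 0.0615 in MitoNegative cells (adjusted p = 0.0106), a call lost without letter B or letter C.

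Of 13 tested vascular, matrix and pH targets, 7 were higher and 0 lower in MitoPositive cells, and 7 higher and 1 lower in MitoNegative cells. Stc2, a secreted glycoprotein, stood at 13.4, 10.1 and 9.58 CPM in MitoPositive cells, 8.05, 6.37 and 7.63 CPM in MitoNegative cells and 2.16, 1.60 and 1.62 CPM in monoculture cells. Its log2 fold change against monoculture was 2.62 ± 0.175 in MitoPositive (adjusted p = 6.37e-07) and 2.03 ± 0.173 in MitoNegative cells (adjusted p = 6.17e-06). P4ha2, the sister of P4ha1, had 3.34 ± 0.263 in MitoPositive (adjusted p = 2.17e-06) and 2.71 ± 0.265 in MitoNegative cells (adjusted p = 1.61e-05). Lox, the collagen cross-linking oxidase, had 0 counts in all monoculture libraries and was at least 82.9-fold higher in MitoPositive and at least 106-fold higher in MitoNegative cells, computed with the whole monoculture group set to a floor of 3 counts. Lox and P4ha2 are also made by stromal cells, whose markers differ in the same direction between co-culture and monoculture; their part here was not tested.

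Of 13 chromatin, transcription and other targets, 7 were higher in each co-cultured group, and 2 were lower in MitoPositive and 1 in MitoNegative cells. The transferrin receptor Tfrc, which imports iron, stood at 273, 292 and 292 CPM in MitoPositive cells, 269, 271 and 271 CPM in MitoNegative cells and 51.6, 83.2 and 55.5 CPM in monoculture cells. Its log2 fold change was 2.17 ± 0.155 in MitoPositive (adjusted p = 5.18e-06) and 2.09 ± 0.154 in MitoNegative cells (adjusted p = 9.5e-06). Plin2, a lipid droplet coat protein, rose by 1.17 in MitoPositive (adjusted p = 1.27e-06) and 1.06 in MitoNegative cells (adjusted p = 4.21e-06). Hmox1, the heme-degrading oxygenase, rose by 1.95 in MitoPositive (adjusted p = 4.52e-06) and 1.77 in MitoNegative cells (adjusted p = 1.29e-05).

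With the letter as a block, 4 of the 66 pathway genes were higher and 1 was lower in MitoPositive than in MitoNegative cells, beside the 1.26% and 1.08% of all genes. They were Epas1, Hk2, Stc2 and the lysyl hydroxylase Plod2, and the lower one was the ectonucleotidase Nt5e, of which Stc2, Plod2 and Nt5e are named here after their values were seen. Stc2 had 0.58 ± 0.102 in that fit (adjusted p = 0.0209) and Plod2 0.38 ± 0.0746 (adjusted p = 0.0303). Nt5e had -0.58 ± 0.0928 (adjusted p = 0.0144).

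**Figure D5:**
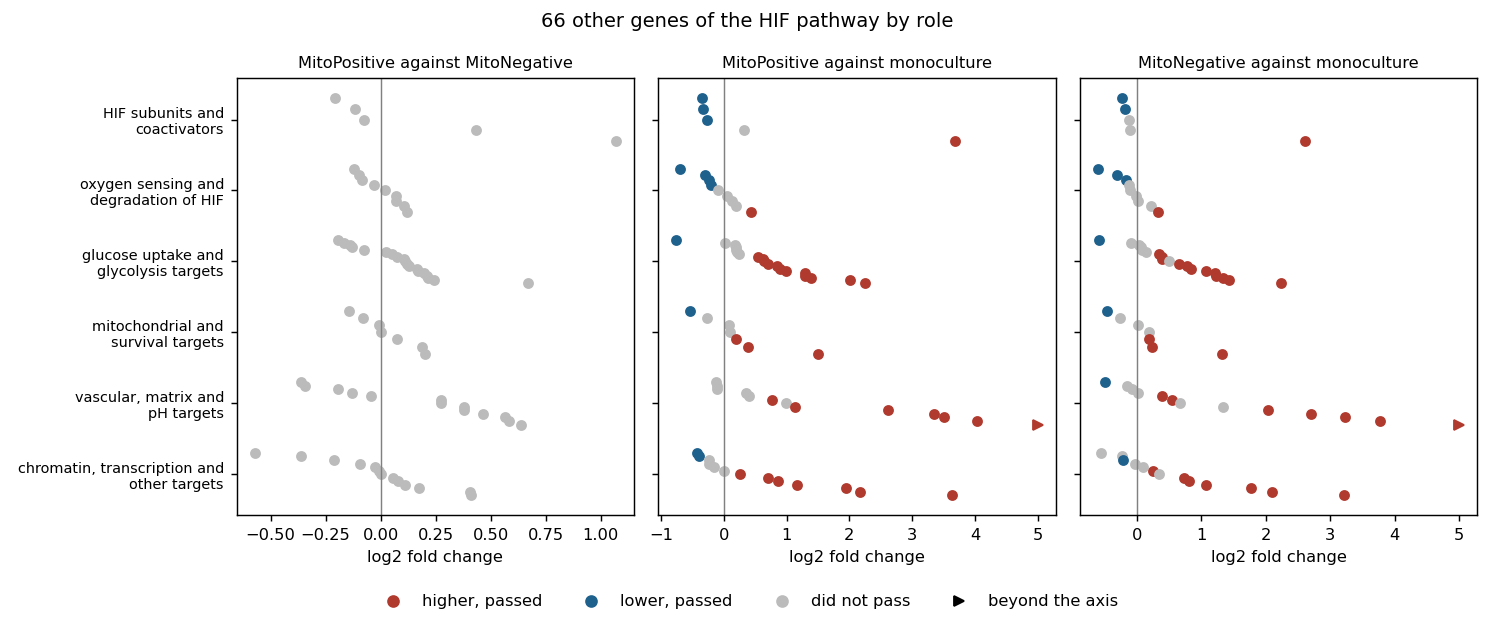
Log2 fold change (horizontal axes) of the 66 tested pathway genes by role (rows) in MitoPositive against MitoNegative, MitoPositive against monoculture and MitoNegative against monoculture. Red points were higher and blue points lower past the adjusted p of 0.05, and the arrowhead is Lox, beyond the axis. Between MitoPositive and MitoNegative 0 points pass, while against monoculture 31 are higher in each co-cultured group.

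The genes whose pattern was most like that of Hif1a were sought by the root mean square difference of log2 CPM, centred over the 9 libraries, among 10616 genes. They were Gm5421 (0.0907), E130208F15Rik (0.129), 2010300C02Rik (0.139), Csnk1e (0.140) and Irak2 (0.149). Irak2, a kinase of interleukin receptor signalling, stood at 68.5, 67.7 and 68.0 CPM in MitoPositive cells, 74.2, 78.7 and 80.2 CPM in MitoNegative cells and 32.7, 39.6 and 28.7 CPM in monoculture cells.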

How the data were processed

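Gene expression was measured by RNA sequencing after ribosomal depletion in 9 libraries, 3 per group. Counts per gene were deposited by the authors, and per the submitters' processing notes bcl2fastq, cutadapt, featureCounts, STAR 2.7 and DESeq2 were used with the build GRCm38. Exon lengths and coordinates are from the authors' deposited annotation and equal GENCODE M21 for the 10 genes. The strandedness of counting was not given in the sources used here. Of 55520 entries, 99 spike-ins were at 0.

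Counts went into edgeR 4.0.16 under R 4.3.3 (robust quasi-likelihood by group over 9 libraries, 6 residual degrees of freedom). The filter was filterByExpr (count of at least 10, total of at least 15), the scale the trimmed mean of M-values, and adjustment Benjamini-Hochberg over 15711 genes. The SE is the log2 change divided by the square root of F, and the fit was checked on simulated data. The 10 genes and all lists were chosen with earlier results of these data known. Named pathway genes were up to 3 per role and comparison with the smallest adjusted p, plus Epas1, Arnt, Egln2, Hif1an, Vhl, Slc2a1, Hk2, Pgk1, Ldha, Pdk1, Bnip3 and Ddit4; 1 of them is not reported here.

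No label says what a letter stands for. Same-letter deviations correlated at 0.402, 0.339 and 0.459 (B, C and D) for MitoPositive with MitoNegative and at 0.213, 0.153 and 0.111 for MitoNegative with monoculture, all above the threshold of 0.1. For MitoPositive with monoculture they were 0.248, 0.0521 and 0.163. Within groups no pair of libraries was as alike as resampled reads would be (chi-square over its degrees of freedom between 17.4 and 59.7). Alternatives were a letter block (4 residual degrees of freedom), also in the sorted groups alone, DESeq2 1.42.0 size factors and test, total counts as scale, limma 3.58.1 voom, no filter, and leaving out each library and each letter.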

Additional observations from a re-analysis of the deposited data

How the results depend on the processing

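Counts are given for the 10 genes and the 66 pathway genes. Between MitoPositive and MitoNegative the 10 genes had 2 higher with the replicate block, 4 higher and 1 lower with the replicate block in the sorted groups alone, 2 higher by DESeq2 and 2 without the filter. Of all genes, 9.92% were higher and 8.29% lower with the block in the sorted groups alone, 1.56% and 1.1% by DESeq2, and 0.379% and 0.238% without the filter. The pathway had 4 higher and 1 lower with the replicate block, 19 and 10 with it in the sorted groups alone, 5 and 1 by DESeq2, and 2 higher without the filter. In MitoNegative against monoculture 2 of the 10 genes were lower with the block; in MitoPositive against monoculture, where letters did not pair by the threshold, P4ha1 (0.26 ± 0.0653) was higher and Bnip3 (-0.29 ± 0.0928) lower with it.

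Leaving out a library or a letter gave 0 to 1 of the 10 genes higher in MitoPositive against MitoNegative, where Ero1l passed without monoculture D, 5 to 5 higher and 1 to 2 lower in MitoPositive against monoculture, and 3 to 4 higher and 0 to 1 lower in MitoNegative against monoculture. For the pathway it gave 0 to 2 higher and 0 to 0 lower in MitoPositive against MitoNegative, 28 to 34 higher and 8 to 11 lower in MitoPositive against monoculture, and 26 to 32 higher and 4 to 10 lower in MitoNegative against monoculture. Over the 15705 to 16088 genes tested, the same settings gave 0 to 80 higher and 0 to 53 lower in MitoPositive against MitoNegative. Against monoculture they gave 2234 to 3689 higher and 1888 to 3142 lower in MitoPositive cells. In MitoNegative cells they gave 1895 to 3364 higher and 1600 to 2804 lower. The causes were not tested.

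The called changes of the 10 genes, all against monoculture, kept their sign in the 18 settings run for them. Named pathway genes turned sign only where they had not passed. Between MitoPositive and MitoNegative, Pgk1 ran from -0.052 (without MitoNegative replicate D) to 0.099 and Bnip3 from -0.15 to 0.17 (without MitoPositive replicate C) when a library or letter was left out, and Bnip3 was 0.010 on total counts and 0.0061 without the filter. In MitoNegative against monoculture, Ldha ran from -0.068 (without letter B) to 0.20. Of 1308 values of named pathway genes and relatives under alternatives, 1232 kept direction and side of the threshold. The lowest count of the 10 genes in a library was 101, and the effect of depth on them was not tested.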

Other observations

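Close relatives of the 10 genes, picked by homology with values of these libraries known, were compared by level in CPM per kb of exon (mean ± SD, n = 3). Kdm3b lay a little below Kdm3a, at 11.9 ± 0.354 in MitoPositive, 12.5 ± 0.250 in MitoNegative and 14.3 ± 0.546 in monoculture cells. It fell against monoculture, with a log2 change of -0.27 ± 0.0537 in MitoPositive (edgeR's adjusted p = 0.00173) and -0.20 ± 0.0537 in MitoNegative cells (adjusted p = 0.0128), calls lost without letter C in both and, in MitoNegative cells, also without MitoNegative B, MitoNegative C or letter B. Ndrg3, at 11.1 ± 0.876 in MitoPositive, 11.1 ± 0.238 in MitoNegative and 12.4 ± 1.53 in monoculture cells, stood above Ndrg1. Ndrg2, at 5.55 ± 0.676 in MitoPositive, 5.89 ± 0.199 in MitoNegative and 8.86 ± 0.700 in monoculture cells, fell against monoculture, with a log2 change of -0.67 ± 0.0911 in MitoPositive (edgeR's adjusted p = 0.000118) and -0.59 ± 0.0909 in MitoNegative cells (adjusted p = 0.00039). Both calls held in every alternative run. Ero1lb, the sister oxidase of Ero1l, was at 3.04 ± 0.0750 in MitoPositive, 2.97 ± 0.104 in MitoNegative and 2.69 ± 0.0998 in monoculture cells. Its change in MitoPositive cells against monoculture was 0.18 ± 0.0655 (edgeR's adjusted p = 0.0494, and above 0.05 in 13 of the alternatives), and in MitoNegative cells 0.15 ± 0.0655 (adjusted p = 0.101). Vegfb, the relative of Vegfa, was at 4.24 ± 0.442 in MitoPositive, 5.12 ± 0.328 in MitoNegative and 4.17 ± 0.407 in monoculture cells. MitoNegative libraries of Vegfb all lay above the monoculture ones, with a log2 change of 0.29 ± 0.118 (edgeR's adjusted p = 0.0676, or 0.0322 with the letter as a block and 0.0423 without monoculture C), while MitoPositive cells had 0.02 ± 0.118 (adjusted p = 0.905). Bhlhe41, the relative of Bhlhe40, was at 0.153 ± 0.0369 in MitoPositive, 0.115 ± 0.0253 in MitoNegative and 0.171 ± 0.0841 in monoculture cells. Hif3a was at 0.359 ± 0.0788 in MitoPositive, 0.265 ± 0.0432 in MitoNegative and 0.287 ± 0.0479 in monoculture cells. Vegfc had no more than 5 counts and P4ha3 no more than 2 in any library.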
